A study of Homo sapiens with 6 samples.

Results

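The BCL2 family decides whether a cell's mitochondria are kept intact or opened, and 10 of its genes are described here in MM.1S cells that carried short hairpin RNAs (shRNAs) against IRF3. The genes were taken by symbol from the authors' deposited tables: BCL2, BCL2L1, MCL1, BCL2L11, BMF, BBC3, PMAIP1, BIK, BAX and BAK1. They are 10 of 33095 genes listed, and all 10 carry an adjusted p in both comparisons. MM.1S (also written MM1.S in the labels) is an established human line of multiple myeloma, a cancer of plasma cells. All cells were grown in RPMI 1640 with 10% FBS and transduced with lentivirus. They expressed IRF3 shRNA 1 (2 libraries), IRF3 shRNA 2 (2 libraries) or a scramble control hairpin (2 libraries), so the controls too had been through lentiviral transduction. The labels do not give the time after transduction, whether cells were selected or cloned, or whether the 2 libraries of a group were grown as separate cultures, so the p-values rest on a spread among libraries that may be technical in origin.

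Members of the family share a short BH3 segment and fall into roles that bind each other. Survival proteins (BCL2, BCL-XL from BCL2L1, and MCL1) hold the effectors BAX and BAK, encoded by BAX and BAK1, in check at the outer mitochondrial membrane. BH3-only proteins (BIM from BCL2L11, BMF, PUMA from BBC3, NOXA from PMAIP1, and BIK) occupy the groove of the survival proteins or engage the effectors, which then form pores that release cytochrome c. Plasma cells and most myeloma lines depend on MCL1, and BIM is a main partner that MCL1 holds. IRF3 is a transcription factor activated by nucleic acid sensing; it can induce PMAIP1, and the IRF3 protein can also act on BAX directly.

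The BH3 segment is shown because it is the sequence that the members of all 3 roles share and that the rule, which used symbols only, did not. In each line 30 coding bases are given 5′ to 3′ from the GENCODE 29 (GRCh38) transcript marked as principal, and capitals mark the codons for leucine, any 3 residues, glycine or alanine, and aspartate.
BCL2: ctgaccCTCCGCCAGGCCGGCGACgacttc
BCL2L1: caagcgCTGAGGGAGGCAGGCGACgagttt
MCL1: gagaccTTACGACGGGTTGGGGATggcgtg
BCL2L11: caagagTTGCGGCGTATTGGAGACgagttt
BMF: cgaaagCTTCAGTGCATTGCAGACcagttc
BBC3: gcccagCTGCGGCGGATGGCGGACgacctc
PMAIP1: actcaaCTCAGGAGATTTGGAGACaaactg
BIK: ctgcggCTGGCCTGCATCGGGGACgagatg
BAX: gagtgtCTCAAGCGCATCGGGGACgaactg
BAK1: cggcagCTCGCCATCATCGGGGACgacatc

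Every member held this core once. The pattern is short and not particular to the family, since it occurred in 24.9% of 19484 coding genes searched the same way. BMF and BBC3 have an alanine codon (GCA and GCG) where the other members have a glycine codon. The coding sequences differ in size: the NOXA protein has 54 residues with the core at residues 29 to 34, and MCL1 has 350 with the core at residues 213 to 218.

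The values are the authors' deposited tables of DESeq2 results for shRNA 1 against scramble and shRNA 2 against scramble, without values for individual libraries. Each gene has a mean normalised read count over all 6 libraries, a log2 fold change (hairpin over scramble) with its standard error (SE), and an adjusted p. The level of each group was reconstructed from that mean and both fold changes; a reconstructed mean is a group value with no standard deviation. For IRF3 itself the authors' deposited tables give -1.53 ± 0.10 (SE, log2, DESeq2 adjusted p = 8.45e-46) under shRNA 1 and -0.18 ± 0.10 (SE, log2, DESeq2 adjusted p = 0.181) under shRNA 2. Its reconstructed means were 974 with shRNA 1, 2476 with shRNA 2 and 2809 with scramble, and the ratio to scramble under shRNA 2 had a 95% interval of 0.768 to 1.01; a fall of the targeted mRNA was therefore not detected in the libraries labelled shRNA 2, and every direction given for shRNA 2 is that of libraries so labelled. The 10 plasma cell markers had means of 1665 to 31453, and their summed reconstructed level was 112552 with shRNA 1, 101016 with shRNA 2 and 154187 with scramble. They did not all move alike: the authors' deposited tables call 7 lower and 1 higher (SDC1) with shRNA 1. With shRNA 2 the same tables call 8 lower and 1 higher (CD38). Over the 5 lists of markers of B, T, myeloid, stromal and erythroid cells, the summed level of a list was 51.7 to 187.9 with shRNA 1, 44.2 to 111.9 with shRNA 2 and 41.9 to 180.9 with scramble, and the B cell marker MS4A1 had a mean of 3.8. The sum over the 4 myeloid markers was 187.9 with shRNA 1, 111.9 with shRNA 2 and 41.9 with scramble, of which ITGAM alone gave 156.1 with shRNA 1, 88.4 with shRNA 2 and 21.7 with scramble. The other 3 (CD14, LYZ and CSF1R) had levels of 2.62 to 18.3 in every group and none was called in the authors' deposited tables. In the other lists, the T cell marker CD3E was called higher with shRNA 1 (log2 fold change 1.35 ± 0.48, SE, DESeq2 adjusted p = 0.023) in the authors' deposited table. The stromal marker PDGFRB (-1.85 ± 0.71, SE, DESeq2 adjusted p = 0.0348) and the erythroid marker HBB (-0.85 ± 0.31, SE, DESeq2 adjusted p = 0.0225) were called lower with shRNA 2 in the authors' deposited table. The part of marker RNA in the results below was not tested. In RNA from whole cultures, fewer cells expressing a gene and less of its RNA per cell cannot be told apart.

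With shRNA 1, BMF, BAX and BCL2L1 rose and BCL2 and BCL2L11 fell, 5 of the 10 members. With shRNA 2, BBC3, BMF, BCL2L11, BAX and MCL1 rose and BCL2L1 and BAK1 fell, 7 of 10. An adjusted p below 0.05 was the threshold for a change. It was reached by 24.6% of all 14488 genes tested with shRNA 1 (9.8% higher and 14.8% lower) and by 29.0% of 17054 with shRNA 2 (10.9% higher and 18.1% lower), per the authors' deposited tables. Detection depends on abundance, and 8 of the members have a mean of 500 or more; among genes at that level the shares were 35.6% and 44.0%. The median log2 fold change was 0.20 over the members and -0.03 over all genes tested with shRNA 1, and 0.33 over the members and 0.00 over all genes tested with shRNA 2. BMF and BAX rose in both comparisons, while BCL2L1 and BCL2L11 were called in both with opposite signs. The 2 comparisons share the scramble libraries. Over all genes tested in both, 9.5% were called with the same sign and 2.55% with opposite signs; among genes with a mean of 500 or more these shares were 14.2% and 4.3%.

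**Figure D1:**
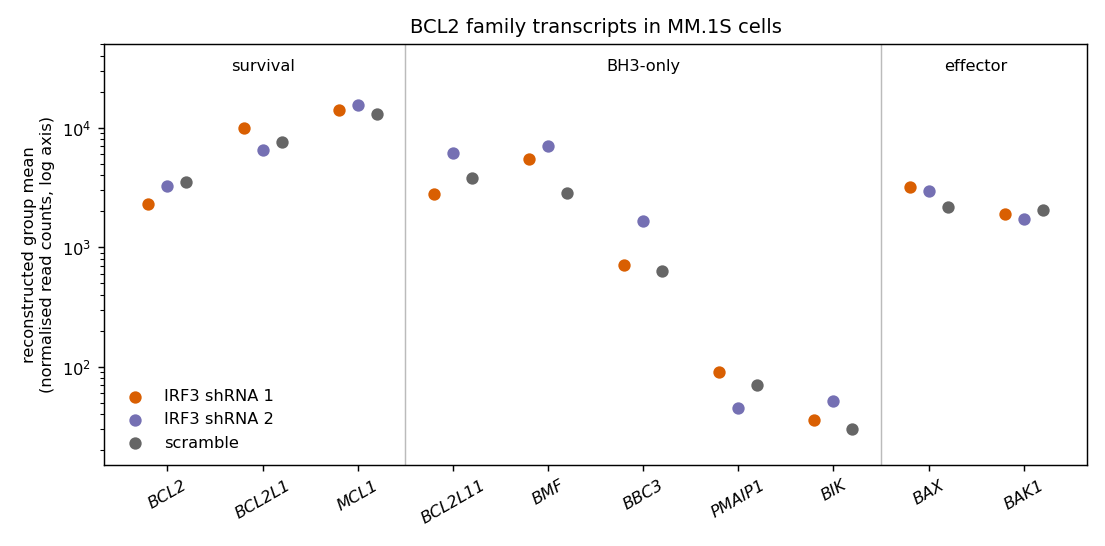
Reconstructed group means (normalised read counts, log axis) of the 10 members in cells with IRF3 shRNA 1, IRF3 shRNA 2 and scramble; each point is 1 group of 2 libraries, with no error bar because no library values were available. BMF lies at 5416 and 7009 with the hairpins and 2855 with scramble, and PMAIP1 and BIK lie below 100 in every group.

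Among the survival genes, each had a pattern of its own. BCL2 (chromosome 18, 63123346 to 63320128, minus strand, GRCh38), the founding member, had reconstructed means of 2310 with shRNA 1, 3251 with shRNA 2 and 3492 with scramble. It fell with shRNA 1, to 0.662 times scramble (95% interval 0.584 to 0.749), a log2 fold change of -0.60 ± 0.09 (SE, DESeq2 adjusted p = 2.44e-09) in the authors' deposited table. With shRNA 2 its log2 fold change was -0.10 ± 0.09 (SE, DESeq2 adjusted p = 0.459) in the authors' deposited table, with a 95% interval of the ratio of 0.823 to 1.05.

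BCL2L1 (chromosome 20, 31664452 to 31723989, minus strand), which encodes BCL-XL, was high with shRNA 1 and low with shRNA 2. Its reconstructed means were 9949 with shRNA 1, 6512 with shRNA 2 and 7581 with scramble. In the authors' deposited tables it rose with shRNA 1 (log2 fold change 0.39 ± 0.08, SE, DESeq2 adjusted p = 3.68e-06). It fell with shRNA 2 (-0.22 ± 0.08, SE, DESeq2 adjusted p = 0.0166) in the authors' deposited table, a call that was lost when fold changes were recentred on the median gene (adjusted p = 0.0615). ABALON, a noncoding RNA annotated on the opposite strand, shares 1424 exon bases with BCL2L1, 43% of the gene's merged exons. ABALON moved in the same 2 directions, with log2 fold changes of 0.74 ± 0.20 with shRNA 1 (DESeq2 adjusted p = 0.00187) and -0.79 ± 0.21 with shRNA 2 (SE, DESeq2 adjusted p = 0.00116) in the authors' deposited tables. Its mean was 289, against 8014 for BCL2L1, in the authors' deposited tables. Use of strand by the authors in counting is not stated in the labels, so reads of the shared bases cannot be assigned with certainty. BCL2L1 also yields a shorter, death-promoting splice form, BCL-XS, which gene-level values do not separate from BCL-XL.

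MCL1 (chromosome 1, 150574551 to 150579738, minus strand), the survival gene on which plasma cells depend, moved by small amounts. Its reconstructed means were 14055 with shRNA 1, 15374 with shRNA 2 and 13090 with scramble. It rose with shRNA 2 to 1.17 times scramble (95% interval 1.07 to 1.29), a log2 fold change of 0.23 ± 0.07 (SE, DESeq2 adjusted p = 0.00433) in the authors' deposited table. With shRNA 1 the ratio was 1.07 (0.977 to 1.18) and the DESeq2 adjusted p 0.317 in the authors' deposited table. These are mRNA levels; MCL1 is also controlled through rapid turnover of its protein, which was not measured here.

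**Figure D2:**
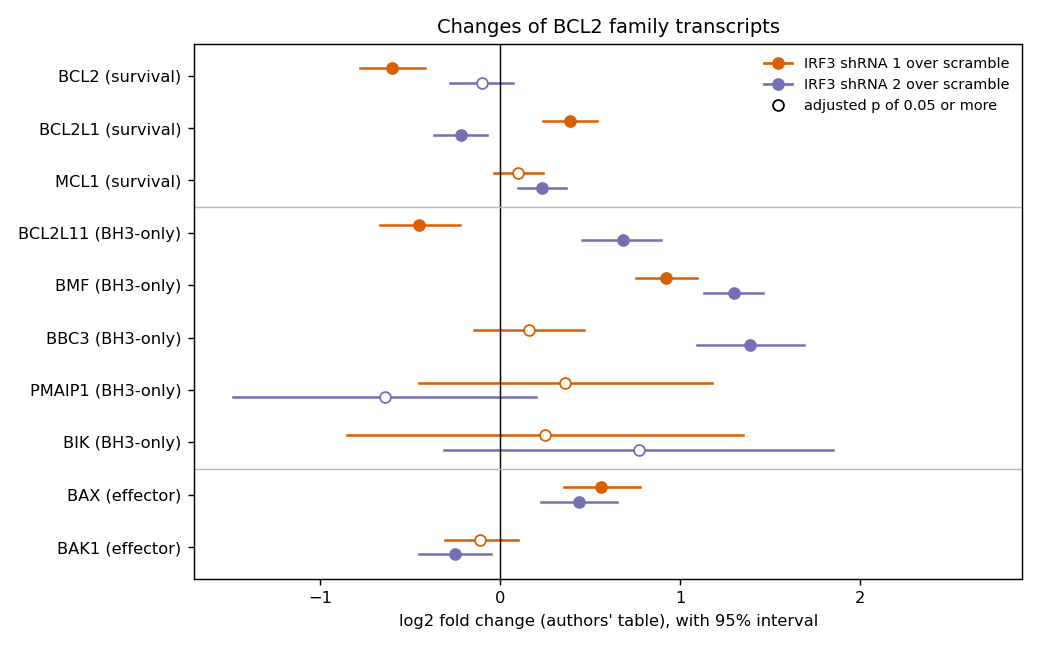
Log2 fold changes of the 10 members from the authors' deposited tables, shRNA 1 over scramble and shRNA 2 over scramble, with 95% intervals; filled points have an adjusted p below 0.05. BMF and BAX lie right of 0 in both comparisons, BCL2L11 lies at -0.45 with shRNA 1 and 0.68 with shRNA 2, and the intervals of PMAIP1 and BIK are wide.

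Among the 10 members, the 2 largest log2 fold changes were those of the BH3-only genes BBC3 and BMF. BMF (chromosome 15, 40087890 to 40108892, minus strand), whose protein is tethered to dynein light chain and freed by stress, rose with both hairpins. Its reconstructed means were 5416 with shRNA 1, 7009 with shRNA 2 and 2855 with scramble. It was 1.90 times scramble with shRNA 1 (95% interval 1.69 to 2.13; log2 fold change 0.92 ± 0.08, SE, DESeq2 adjusted p = 2.36e-25) in the authors' deposited table. With shRNA 2 it was 2.46 times scramble (2.19 to 2.75; log2 fold change 1.30 ± 0.08, SE, DESeq2 adjusted p = 2.86e-50) in the authors' deposited table.

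BBC3 (chromosome 19, 47220822 to 47232766, minus strand) encodes PUMA, which binds all survival proteins. It rose in the libraries labelled shRNA 2, with reconstructed means of 704 with shRNA 1, 1653 with shRNA 2 and 631 with scramble. With shRNA 2 the ratio was 2.62 (95% interval 2.13 to 3.22), a log2 fold change of 1.39 ± 0.15 (SE, DESeq2 adjusted p = 2.86e-18) in the authors' deposited table. With shRNA 1 the ratio was 1.12 (0.904 to 1.38) and the DESeq2 adjusted p 0.534 in the authors' deposited table. These 2 intervals do not overlap.

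BCL2L11 (chromosome 2, 111119378 to 111168447, plus strand) encodes BIM, which binds every survival protein and can activate BAX. It moved in opposite directions, with reconstructed means of 2789 with shRNA 1, 6071 with shRNA 2 and 3800 with scramble. In the authors' deposited tables it fell with shRNA 1, to 0.734 times scramble (95% interval 0.629 to 0.856; log2 fold change -0.45 ± 0.11, SE, DESeq2 adjusted p = 0.000756). It rose with shRNA 2, to 1.60 times scramble (1.37 to 1.86; log2 fold change 0.68 ± 0.11, SE, DESeq2 adjusted p = 3.08e-08) in the authors' deposited table. The noncoding gene MIR4435-2HG shares 727 exon bases with BCL2L11 on the opposite strand, 10.9% of its merged exons, and was higher in both comparisons, with log2 fold changes of 0.30 ± 0.10 (SE, DESeq2 adjusted p = 0.0156) with shRNA 1 and 0.31 ± 0.10 (SE, DESeq2 adjusted p = 0.00911) with shRNA 2 in the authors' deposited tables. BIM is made in long and short splice forms of different potency, which gene-level values do not separate.

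PMAIP1 (chromosome 18, 59899948 to 59904306, plus strand), which encodes NOXA, an MCL1-selective BH3-only protein and an IRF3 target gene, had a low level. Its reconstructed means were 90.1 with shRNA 1, 44.9 with shRNA 2 and 69.9 with scramble. The ratios were 1.29 (95% interval 0.733 to 2.26) with shRNA 1 and 0.642 (0.358 to 1.15) with shRNA 2, with DESeq2 adjusted p-values of 0.605 and 0.292 in the authors' deposited tables. BIK (chromosome 22, 43110748 to 43129712, plus strand), a BH3-only protein of the endoplasmic reticulum, had reconstructed means of 35.9 with shRNA 1, 51.4 with shRNA 2 and 30.2 with scramble. Its ratios were 1.19 (0.555 to 2.55) with shRNA 1 and 1.70 (0.805 to 3.60) with shRNA 2, and its DESeq2 adjusted p-values were 0.818 and 0.336 in the authors' deposited tables. A 1.5-fold rise lies within the interval of PMAIP1 with shRNA 1 and those of BIK with either hairpin. A 1.5-fold fall lies within the intervals of PMAIP1 with shRNA 2 and of BIK with shRNA 1. In those cases a change of that size and direction is not excluded. The fitted relative spread between libraries, beyond counting error, was 26.5% for PMAIP1 and 34.7% for BIK, against 4.74% to 10.0% for the other members. It was solved from the SEs of the authors' fit and not measured on library values. PMAIP1 and BIK also have the lowest means of the members (68.3 and 39.2).

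The effectors had unlike values. BAX (chromosome 19, 48954815 to 48961798, plus strand), an effector that moves from cytosol to mitochondria on activation, rose with both hairpins. Its reconstructed means were 3200 with shRNA 1, 2928 with shRNA 2 and 2165 with scramble. The ratios were 1.48 (95% interval 1.28 to 1.71) with shRNA 1 (log2 fold change 0.56 ± 0.11, SE, DESeq2 adjusted p = 2.65e-06) and 1.35 (1.17 to 1.57) with shRNA 2 (0.44 ± 0.11, SE, DESeq2 adjusted p = 0.000342) in the authors' deposited tables.

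BAK1 (chromosome 6, 33572547 to 33580293, minus strand) encodes BAK, the effector that resides on the mitochondrial membrane and is held mainly by MCL1 and BCL-XL. It had reconstructed means of 1886 with shRNA 1, 1708 with shRNA 2 and 2030 with scramble. In the authors' deposited table it fell with shRNA 2 by a small margin (log2 fold change -0.25 ± 0.10, SE, DESeq2 adjusted p = 0.0473). That call was lost without the filter on low genes (adjusted p = 0.091) and on recentring (adjusted p = 0.111). With shRNA 1 the log2 fold change was -0.11 ± 0.10 (SE, DESeq2 adjusted p = 0.515) in the authors' deposited table.

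**Figure D3:**
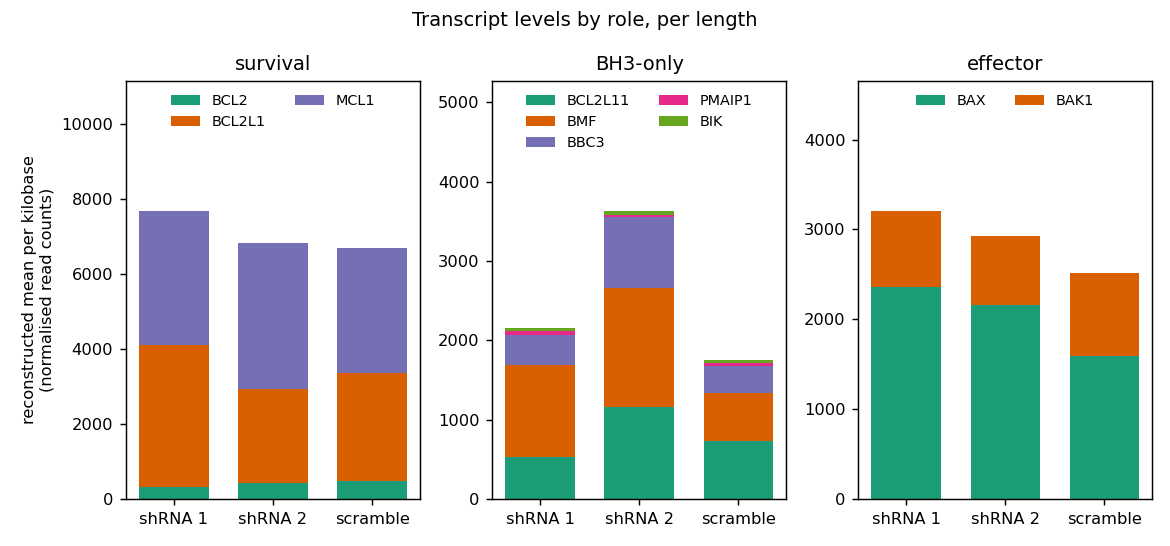
Reconstructed means per kilobase of the longest coding transcript (normalised read counts), stacked by member within the survival, BH3-only and effector roles, for shRNA 1, shRNA 2 and scramble, without error bars. The BH3-only stack is 2155 with shRNA 1, 3632 with shRNA 2 and 1746 with scramble, while the survival stack stays between 6702 and 7696.

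Compared per length, the level was highest for MCL1 and BCL2L1 among the survival genes and lowest for BCL2. Per kilobase of the longest coding transcript, MCL1 had a level of 3574 with shRNA 1, 3910 with shRNA 2 and 3329 with scramble. BCL2L1 had 3812 with shRNA 1, 2495 with shRNA 2 and 2905 with scramble, so it stood above MCL1 with shRNA 1; with merged exon length instead, MCL1 was higher in that group too (3215 against 3002). BCL2 was at 310, 436 and 468 in the same groups and order. The neighbours MCL1 and BCL2L1 are thus not separated in order with shRNA 1.

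In the BH3-only role, BMF made up 53.6% of the summed level per kilobase with shRNA 1, 41.2% with shRNA 2 and 34.9% with scramble. BCL2L11 made up 24.7%, 32.0% and 41.6% in the same groups, so that BMF stood above BCL2L11 with either hairpin and BCL2L11 above BMF with scramble. With merged exon length the order of these 2 genes was the same in every group. BBC3 followed with 17.8%, 24.8% and 19.7%, and PMAIP1 and BIK held 0.634% to 2.15% each. The summed BH3-only level was 1.23 times scramble with shRNA 1 and 2.08 times scramble with shRNA 2 (1.26 and 2.06 with merged exon length). Set against the survival sum, the BH3-only sum came to 28.0% with shRNA 1, 53.1% with shRNA 2 and 26.1% with scramble. These sums are descriptions of transcripts, with no test, and do not take account of how strongly each protein binds.

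Among the effectors, BAX had a level per kilobase of 2356 with shRNA 1, 2156 with shRNA 2 and 1594 with scramble, and BAK1 had 852 with shRNA 1, 772 with shRNA 2 and 918 with scramble. BAX thus stood above BAK1 in every group by this length. With merged exon length, which is longer for BAX, its level was 1237 with shRNA 1, 1132 with shRNA 2 and 837 with scramble, so the order of the 2 effectors turned with scramble. The summed effector level was 1.28 times scramble with shRNA 1 and 1.17 times scramble with shRNA 2 (1.19 and 1.08 with merged exon length), again without a test.

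The hairpins were then compared with each other by the difference of the 2 log2 fold changes (shRNA 2 minus shRNA 1), with a two-sided z test and Benjamini-Hochberg adjustment over all 14488 genes tested in both. The scramble level cancels in the difference, but the SE used, the root of the summed squared SEs of both tables, counts the scramble variance in both and is therefore too large. BCL2L11, BBC3, BCL2 and BMF were higher and BCL2L1 lower in the libraries labelled shRNA 2 than with shRNA 1, 5 of 10 members against 24.0% of all genes tested (10.1% higher and 13.8% lower; 35.0% in either direction among those with a mean of 500 or more). With an SE that leaves out the scramble variance, 6 of 10 members passed, PMAIP1 being added (adjusted p = 0.0463), against 39.4% of all genes and 52.2% of those with a mean of 500 or more, so how far the members' count stands above the share over all genes depends on this choice. The shares at a mean of 500 or more do not cover PMAIP1 and BIK, whose means are 68.3 and 39.2. BBC3 differed by 1.23 ± 0.22 (SE, adjusted p = 3.19e-07), 2.35 times higher with shRNA 2. BCL2L11 differed by 1.12 ± 0.16 (SE, adjusted p = 1.08e-10), 2.18 times higher. The difference was -0.61 ± 0.11 (SE, adjusted p = 2.81e-07) for BCL2L1, 0.49 ± 0.13 (SE, adjusted p = 0.00118) for BCL2 and 0.37 ± 0.12 (SE, adjusted p = 0.0111) for BMF. No difference was shown for MCL1 (95% interval -0.06 to 0.32), BAX (-0.43 to 0.17) or BAK1 (-0.42 to 0.14) on the log2 scale. The intervals of PMAIP1 (-2.17 to 0.16) and BIK (-1.02 to 2.06) are too wide to exclude large differences.

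**Figure D4:**
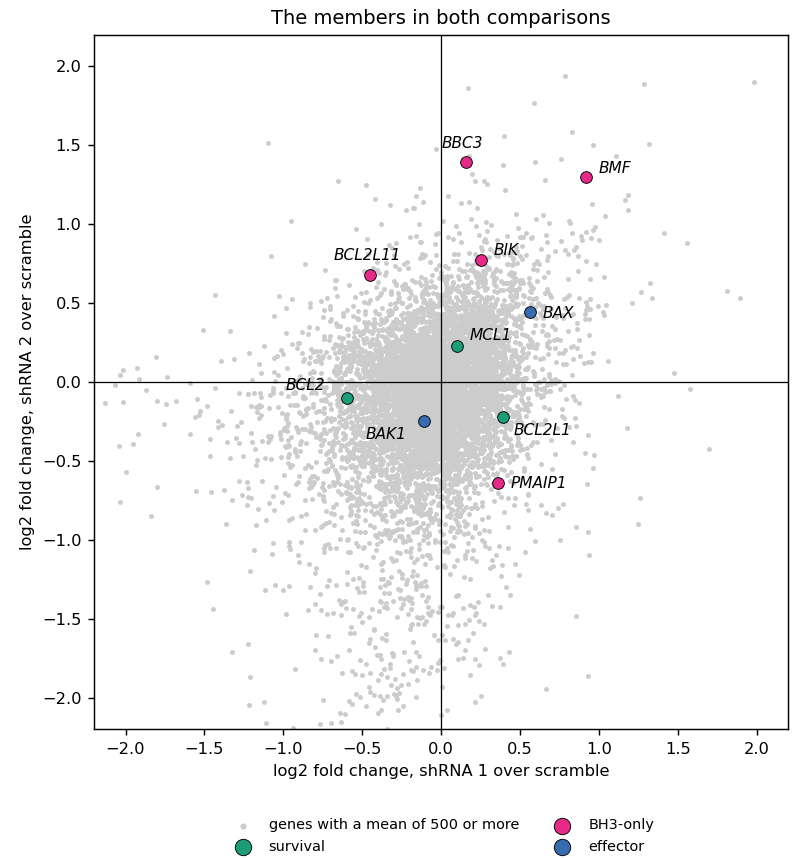
Log2 fold changes of shRNA 1 over scramble (x axis) and shRNA 2 over scramble (y axis) from the authors' deposited tables for genes with a mean of 500 or more (grey, 36 of them outside the axes) and for the 10 members, coloured by role. BMF and BAX lie in the upper right quadrant, BCL2L11 in the upper left and BCL2L1 in the lower right.

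Genes with a pattern like a member's were named by the smallest distance in the plane of the 2 log2 fold changes among 11676 genes, that is over 2 comparisons of 3 groups. Nearest to BMF were CFAP70 (log2 fold changes 0.89 ± 0.26 with shRNA 1 and 1.24 ± 0.26 with shRNA 2, SE) and ZDHHC1 (0.99 ± 0.45 and 1.23 ± 0.45, SE) in the authors' deposited tables. Of that pool these 2 genes alone lay within a distance of 0.1. Within that distance of BCL2L11 lay 15 genes, the nearest being LOC100287049 and TDRKH (-0.42 ± 0.16 and 0.71 ± 0.16, SE, in the authors' deposited tables). Around BAX lay 45 genes, the nearest being MAP2K3 and NTNG1, and around BCL2L1 lay 95, the nearest being RBX1 and DDX1. The distance takes no account of SEs. NTNG1 (0.55 ± 0.38 with shRNA 1 and 0.43 ± 0.38 with shRNA 2, SE) was called in neither of the authors' deposited tables. LOC100287049 and ZDHHC1 were not called with shRNA 1, nor RBX1 and DDX1 with shRNA 2.

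Promoter sequence is shown for BMF and BAX, which rose with both hairpins, and for BBC3 and BCL2L11, which differed most between the hairpins. Each run covers 250 bases before and 50 after a transcription start, 5′ to 3′ on the gene's strand, from RefSeq on GRCh38.p14. A promoter was matched for 8 of the members. Capitals mark the letters GGGCGG (GC box), CACGTG (E-box), GTAAACA (a FOXO site) and GAAA, any 2 bases, GAAA (a pair of core motifs bound by IRF factors), on either strand.
BMF, chr15:40108830-40109129, minus strand: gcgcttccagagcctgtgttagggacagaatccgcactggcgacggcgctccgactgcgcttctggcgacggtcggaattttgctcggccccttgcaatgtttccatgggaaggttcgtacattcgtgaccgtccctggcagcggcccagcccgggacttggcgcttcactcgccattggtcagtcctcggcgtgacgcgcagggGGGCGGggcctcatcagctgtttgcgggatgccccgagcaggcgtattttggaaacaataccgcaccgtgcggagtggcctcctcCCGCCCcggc
BBC3, chr19:47232618-47232917, minus strand: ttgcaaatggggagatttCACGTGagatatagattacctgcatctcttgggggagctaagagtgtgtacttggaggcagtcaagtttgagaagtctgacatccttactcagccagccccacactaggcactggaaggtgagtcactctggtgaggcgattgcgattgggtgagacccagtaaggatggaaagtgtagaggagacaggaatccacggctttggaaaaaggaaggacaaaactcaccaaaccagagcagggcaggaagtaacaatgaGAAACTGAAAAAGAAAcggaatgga
BCL2L11, chr2:111120664-111120963, plus strand: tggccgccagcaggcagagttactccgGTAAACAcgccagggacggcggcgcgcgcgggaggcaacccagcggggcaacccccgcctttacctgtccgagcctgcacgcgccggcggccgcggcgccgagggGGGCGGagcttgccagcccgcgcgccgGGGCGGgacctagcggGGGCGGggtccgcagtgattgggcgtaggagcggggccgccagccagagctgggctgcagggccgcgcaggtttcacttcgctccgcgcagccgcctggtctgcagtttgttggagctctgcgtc
BAX, chr19:48954625-48954924, plus strand: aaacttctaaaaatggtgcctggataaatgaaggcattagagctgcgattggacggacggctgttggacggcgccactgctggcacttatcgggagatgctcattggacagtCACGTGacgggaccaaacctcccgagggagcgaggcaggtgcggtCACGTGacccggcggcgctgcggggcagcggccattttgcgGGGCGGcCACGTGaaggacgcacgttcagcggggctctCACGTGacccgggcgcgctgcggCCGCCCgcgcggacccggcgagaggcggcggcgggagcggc

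The BAX promoter held 4 E-boxes, at positions -138, -93, -45 and -14 from the start, and 2 GC boxes. An E-box occurred in 7.43% of 27305 promoters of the same length, and 4 or more in 5 of them. That minimum of 4 was set after the sequence was seen. The BBC3 window held 1 E-box and the IRF pair at positions 26 and 32, which overlap each other by 4 bases and occurred in 3.65% of all promoters. The BCL2L11 window held 1 FOXO site at position -223, a motif in 3.41% of promoters, and 3 GC boxes. The BMF window held 2 GC boxes and none of the other 3 motifs; a GC box occurred in 44.6% of promoters. A match is a run of letters and does not show that a factor was bound, and a further BMF window, at another start, held none of these 4 motifs.

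The counts of called genes in the lists that follow stand beside shares over all genes tested of 24.6% with shRNA 1 and 29.0% with shRNA 2. In the rest of the family the shares called were near these. Of 14 further genes (BCL2L2, BCL2A1, BCL2L10, BCL2L12, BCL2L13, BCL2L14, BCL2L15, BID, BAD, HRK, BOK, BNIP3, BNIP3L and BECN1) 10 were tested. With shRNA 1, 1 rose and 1 fell (median log2 fold change -0.11), and with shRNA 2, 2 rose and 1 fell (median 0.04), per the authors' deposited tables. BAD, a BH3-only protein that binds BCL2 and BCL-XL and is silenced by phosphorylation, rose with shRNA 1 (0.43 ± 0.13, SE, DESeq2 adjusted p = 0.00517) and fell with shRNA 2 (-0.51 ± 0.13, SE, DESeq2 adjusted p = 0.000623) in the authors' deposited tables. BNIP3L, a mitophagy receptor with a BH3-like segment, went the other way, with -0.33 ± 0.13 (SE, DESeq2 adjusted p = 0.049) and 0.45 ± 0.13 (SE, DESeq2 adjusted p = 0.0032) in the authors' deposited tables. BECN1, an autophagy protein that BCL2 binds through a BH3 segment, rose with shRNA 2 (0.35 ± 0.11, SE, DESeq2 adjusted p = 0.00847) in the authors' deposited table. BID, the link from death receptors to mitochondria, had log2 fold changes of 0.22 ± 0.14 and 0.08 ± 0.14 (SE) and passed in neither of the authors' deposited tables. BCL2L15, a little-studied relative, had log2 fold changes of 1.38 ± 0.58 with each hairpin (SE, DESeq2 adjusted p of 0.0673 and 0.0575) in the authors' deposited tables. The survival gene BCL2L2 (-0.64 ± 0.57 and -0.64 ± 0.59), BCL2L12 (-0.05 ± 0.17 and -0.34 ± 0.17) and BCL2L13 (-0.18 ± 0.11 and 0.04 ± 0.11) did not pass with shRNA 1 or shRNA 2 (log2, SE) in the authors' deposited tables. Nor did the BH3-only gene HRK (0.82 ± 0.58 and -0.32 ± 0.59) and the mitophagy receptor BNIP3 (-0.67 ± 0.46 and 0.04 ± 0.45, log2, SE) in the authors' deposited tables. BCL2A1, BCL2L10, BCL2L14 and BOK had means of 3.1 to 10.8 and no adjusted p in the authors' deposited tables.

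Downstream of the pores, 9 genes of the apoptosome, caspases and other mitochondrial death factors were listed. Of the 8 with a unique symbol, 2 fell and 0 rose with shRNA 1 (median log2 fold change -0.18), and 2 fell and 0 rose with shRNA 2 (median -0.05), per the authors' deposited tables, shares near those over all genes. The ninth, DIABLO, which relieves caspases of their inhibitors, has 2 entries and was left out of the count. Its entry with a mean of 397 was lower with shRNA 1 (-0.55 ± 0.18, SE, DESeq2 adjusted p = 0.0122) and at 0.31 ± 0.17 with shRNA 2 (SE, DESeq2 adjusted p = 0.193), and its other entry had a mean of 2.82 and no adjusted p, in the authors' deposited tables. ENDOG, a mitochondrial nuclease, fell with shRNA 1 (-0.65 ± 0.16, SE, DESeq2 adjusted p = 0.000758) and was at 0.18 ± 0.16 (SE, DESeq2 adjusted p = 0.475) with shRNA 2 in the authors' deposited tables. For ENDOG the reconstructed means were 332 with shRNA 1, 587 with shRNA 2 and 519.6 with scramble. HTRA2, a mitochondrial protease that can be released to the cytosol, passed with neither hairpin (-0.14 ± 0.12 and 0.15 ± 0.12, SE) in the authors' deposited tables. CASP2 fell with shRNA 2 (-0.58 ± 0.10, SE, DESeq2 adjusted p = 2.64e-07) in the authors' deposited table. The scaffold APAF1 passed with neither hairpin and narrowly missed the threshold with shRNA 2 (-0.63 ± 0.30 and -0.73 ± 0.30, SE, DESeq2 adjusted p of 0.117 and 0.0509) in the authors' deposited tables. Cytochrome c itself (CYCS), named after its values were seen, fell with shRNA 2 (-0.87 ± 0.10, SE, DESeq2 adjusted p = 1.13e-16) and not detectably with shRNA 1 (-0.06 ± 0.10, SE) in the authors' deposited tables. CASP9, also named after its values were seen, fell with shRNA 1 (-0.71 ± 0.23, SE, DESeq2 adjusted p = 0.0107) and was at 0.00 ± 0.22 with shRNA 2 (SE, DESeq2 adjusted p = 0.994) in the authors' deposited tables.

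Next were 8 partners of the family. VDAC1, VDAC2, VDAC3 and MTCH2 encode mitochondrial outer membrane proteins, DYNLL1 and DYNLL2 dynein light chains, and YWHAZ and YWHAQ 14-3-3 proteins. Of all 8, 7 fell and 0 rose with shRNA 2 (median log2 fold change -0.53), per the authors' deposited tables. With shRNA 1, 2 rose and 2 fell (median 0.03) in the same tables. With shRNA 2, 18.1% of all genes tested fell; all 8 partners have a mean of 500 or more, a level at which 44.0% were called in either direction. MTCH2, a mitochondrial membrane protein that receives BID, fell with both (-0.97 ± 0.12 and -0.48 ± 0.12, SE, DESeq2 adjusted p of 5.53e-15 and 0.000237) in the authors' deposited tables. YWHAQ, a 14-3-3 protein of the kind that holds phosphorylated BAD, fell with both (-0.32 ± 0.09 and -0.69 ± 0.09, SE, DESeq2 adjusted p of 0.00148 and 2.9e-14) in the authors' deposited tables. Another 14-3-3 gene, YWHAZ, rose with shRNA 1 (0.24 ± 0.09, SE, DESeq2 adjusted p = 0.0256) and fell with shRNA 2 (-0.31 ± 0.09, SE, DESeq2 adjusted p = 0.00166) in the authors' deposited tables. DYNLL1, a dynein light chain, rose with shRNA 1 (0.26 ± 0.09, SE, DESeq2 adjusted p = 0.027) and missed the threshold with shRNA 2 (0.23 ± 0.09, SE, DESeq2 adjusted p = 0.0546) in the authors' deposited tables. The channel gene VDAC2, which anchors BAK and BAX and was named after its values were seen, was at -0.06 ± 0.10 with shRNA 1 and fell with shRNA 2 (-0.59 ± 0.10, SE, DESeq2 adjusted p = 2.92e-08) in the authors' deposited tables.

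**Figure D5:**
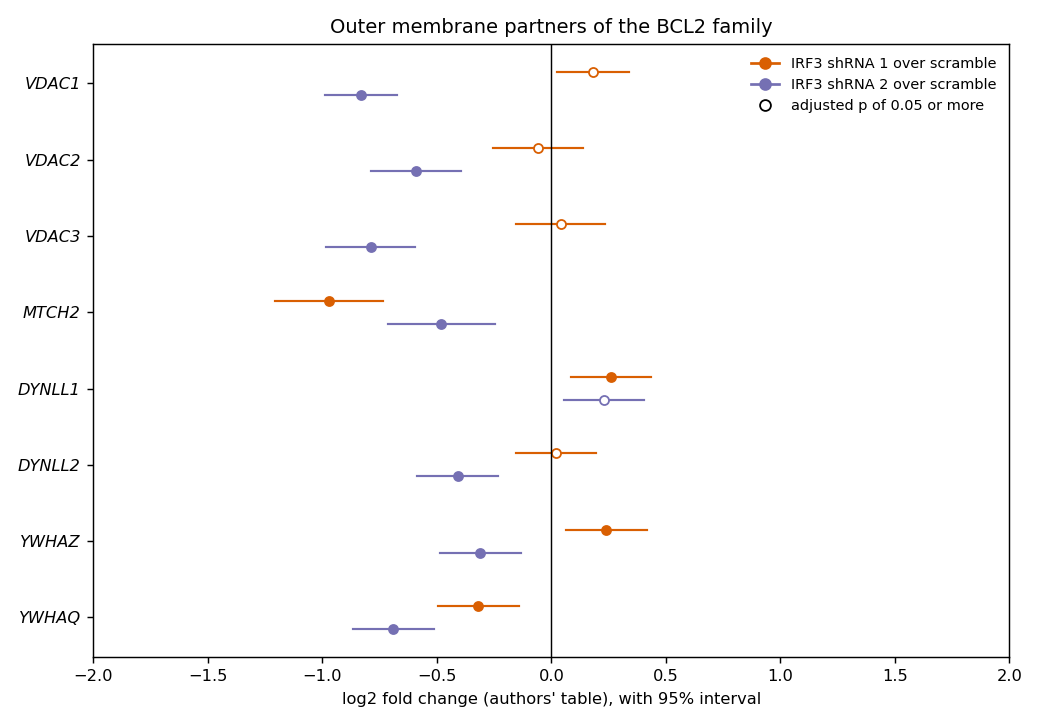
Log2 fold changes with 95% intervals from the authors' deposited tables for 8 partners of the family, shRNA 1 and shRNA 2 over scramble. Of these, the VDAC genes and MTCH2 encode outer membrane proteins. Filled points have an adjusted p below 0.05. MTCH2 lies at -0.97 with shRNA 1 and -0.48 with shRNA 2, and the 3 VDAC genes lie left of 0 with shRNA 2.

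Among 6 inhibitors of apoptosis, the authors' deposited tables call 1 higher and 1 lower under shRNA 1 (median 0.03), and 1 higher and 2 lower under shRNA 2 (median 0.09). XIAP, the direct caspase inhibitor, fell with either hairpin (-0.56 ± 0.13 and -0.46 ± 0.12, SE, DESeq2 adjusted p of 0.000106 and 0.00148), and BIRC3 rose with both (0.32 ± 0.10 and 0.26 ± 0.10, SE, DESeq2 adjusted p of 0.0111 and 0.0382) in the authors' deposited tables. BIRC5 (survivin), which also serves in mitosis, fell with shRNA 2 (-1.88 ± 0.31, SE, DESeq2 adjusted p = 1.74e-08), and BIRC2, a ubiquitin ligase, passed with neither hairpin (0.06 ± 0.12 in each comparison, SE) in the authors' deposited tables. Among genes listed for MCL1 turnover, 2 fell and 0 rose of 7 tested with shRNA 1 (median -0.07), and 3 fell and 2 rose of 8 with shRNA 2 (median -0.14), per the authors' deposited tables. Those that fell were USP13 and MTCH2 with both hairpins and DUSP6 with shRNA 2. MTCH2, described above as receiving BID, is counted in both lists, and DUSP6 is described below by its link to BIM. A part of either gene in MCL1 turnover was not tested. USP13, a deubiquitinase, fell with both (-0.79 ± 0.14 and -1.18 ± 0.14, SE, DESeq2 adjusted p of 3.11e-07 and 2.18e-15), and the ubiquitin ligase HUWE1 rose with shRNA 2 (0.24 ± 0.09, SE, DESeq2 adjusted p = 0.0255) in the authors' deposited tables. DUSP6, a phosphatase of ERK, the kinase that marks BIM for degradation, fell with shRNA 2 (-2.36 ± 0.14, SE, DESeq2 adjusted p = 1.28e-57) and was at 0.21 ± 0.13 (SE, DESeq2 adjusted p = 0.255) with shRNA 1 in the authors' deposited tables.

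Transcription factors known to act on the family moved in both directions. Of 16 tested, IRF3 among them, the authors' deposited tables call 2 higher and 7 lower under shRNA 1 (median -0.30), and 1 higher and 4 lower under shRNA 2 (median 0.02). IRF4, the factor that maintains plasma cells, fell with both (-1.21 ± 0.08 and -1.87 ± 0.08, SE, DESeq2 adjusted p of 2.72e-45 and 4.26e-107) in the authors' deposited tables. FOXO3, which can induce BCL2L11 and BBC3, fell with both hairpins (-0.54 ± 0.07 and -0.34 ± 0.07, SE, DESeq2 adjusted p of 5.85e-12 and 4.01e-05) in the authors' deposited tables. TP73 fell with both (-0.89 ± 0.22 and -2.64 ± 0.23, SE, DESeq2 adjusted p of 0.000355 and 2.28e-28), as did E2F1 (-1.04 ± 0.13 and -2.48 ± 0.14, SE, DESeq2 adjusted p of 6.11e-14 and 4.66e-72) in the authors' deposited tables. A separate list held 8 genes that are not counted among these factors: MDM2, MDM4, CDKN1A, PPM1D, SESN1, SESN2, GADD45A and ZMAT3. Of these 8, the authors' deposited tables call 2 higher and 1 lower under shRNA 1 (median 0.09), and 3 higher and 1 lower under shRNA 2 (median 0.06). CDKN1A, the cell cycle inhibitor p21, rose with shRNA 1 (0.77 ± 0.15, SE, DESeq2 adjusted p = 1.06e-05) and was at -0.22 ± 0.16 with shRNA 2 (SE, DESeq2 adjusted p = 0.328) in the authors' deposited tables. SESN1 fell with shRNA 2 (-0.34 ± 0.10, SE, DESeq2 adjusted p = 0.00288) and was at 0.12 ± 0.10 with shRNA 1 (SE, DESeq2 adjusted p = 0.435) in the authors' deposited tables. SESN2, a stress-induced gene, fell with shRNA 1 (-0.76 ± 0.17, SE, DESeq2 adjusted p = 0.000124) and rose with shRNA 2 (0.54 ± 0.17, SE, DESeq2 adjusted p = 0.00612) in the authors' deposited tables, the same directions as BCL2L11. ZMAT3 was at -0.31 ± 0.17 (SE, DESeq2 adjusted p = 0.198) with shRNA 1 and rose with shRNA 2 (0.85 ± 0.17, SE, DESeq2 adjusted p = 4.89e-06) in the authors' deposited tables.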

How the data were processed

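Poly(A)-selected RNA of 6 MM.1S libraries, 2 per group, was sequenced. Salmon 0.12.0, DESeq2 1.24.0 and GRCh38 are named in the submitters' processing notes; their settings, the annotation, strand use and library depth are not stated. Groups follow the hairpin in the labels. The authors deposited a signal, the mean of normalised read counts (summed over genes, 25062897), the log2 fold changes and their SEs on the log2 scale, the Wald score, and p-values with adjusted p-values, per the file headers. Means were identical in both tables.

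Fold changes were read as hairpin over scramble: dispersions solved from each table for 928 genes differed between tables by a median of 0.00476 (absolute natural log of their ratio) as coded, and by 0.0581 to 0.127 with signs turned. Reconstructed scramble means are 3 times the mean divided by the sum of 1 and both ratios. For recentring, the median over genes whose mean reached 50 was subtracted (-0.04 on the log2 scale in both). The SE of the difference was the root of both summed squared SEs. Lengths, loci and coding sequences came from GENCODE 29, which holds all 33095 identifiers. Python 3.11.15, pandas 2.3.3 and scipy 1.17.1 were used.

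Members and lists were chosen with earlier results of these data known. All members were named; from each related list, the up to 4 genes with the lowest larger p, and every other family member by symbol. Some genes are not reported here and were left out of the lists and their counts, not of the tests over all genes. Alternatives covered threshold, filter, centring, minimum fold change, the SE of the difference and length. No count test was run, since no library values were in the tables used here.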

Additional observations from a re-analysis of the deposited data

Results flagged for a closer look

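The effect of the hairpins differed between them for 5 of 10 members in a two-sided z test over all genes with Benjamini-Hochberg adjustment. The share called was 24.0% over all genes tested and 35.0% among those with a mean of 500 or more. With an SE that leaves out the scramble variance, 6 of 10 members passed, against 39.4% and 52.2%. The shares of 35.0% and 52.2% do not cover PMAIP1 and BIK, whose means are below 500. Differences are shRNA 2 minus shRNA 1 on the log2 scale. BBC3 differed by 1.23 ± 0.22 (SE, adjusted p = 3.19e-07), with ratios to scramble of 2.62 with shRNA 2 and 1.12 with shRNA 1. BCL2L11 differed by 1.12 ± 0.16 (SE, adjusted p = 1.08e-10), with ratios of 1.60 with shRNA 2 and 0.734 with shRNA 1. BCL2L1 differed by -0.61 ± 0.11 (SE, adjusted p = 2.81e-07), with ratios of 0.859 with shRNA 2 and 1.31 with shRNA 1. BCL2 differed by 0.49 ± 0.13 (SE, adjusted p = 0.00118), with ratios of 0.931 with shRNA 2 and 0.662 with shRNA 1. BMF differed by 0.37 ± 0.12 (SE, adjusted p = 0.0111), with ratios of 2.46 with shRNA 2 and 1.90 with shRNA 1. IRF3 mRNA was 0.881 times scramble with shRNA 2 and 0.347 times scramble with shRNA 1; its part in these differences was not tested. No group has the 4 libraries that a search for outlying libraries needs.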

How the results depend on the processing

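No paired analysis was possible because the tables hold no value of a single library, and for the same reason no replicate was left out. The counts of 5 members changed with shRNA 1, 7 with shRNA 2 and 5 differing between the hairpins stayed within 1.5 times under every alternative except a minimum absolute log2 of 0.5, under which each became 3. That minimum gave 2002 in place of 3571 calls over all genes with shRNA 1, 3191 in place of 4939 with shRNA 2 and 2776 in place of 3471 for the difference. No member changed sign. Besides that minimum, calls lost were BCL2L1 with shRNA 2 at 0.01 (adjusted p = 0.0166) and on recentring (0.0615), BAK1 with shRNA 2 at 0.01 (0.0473), without the filter (0.091) and on recentring (0.111), and the difference of BMF at 0.01 (0.0111). Without the variance of the shared scramble mean, the difference passed for 6 members, PMAIP1 being added (adjusted p = 0.0463), and for 5715 genes. Precision is lowest for PMAIP1 and BIK, with SEs of 0.41 to 0.56 on the log2 scale. Their fitted spread between libraries, beyond counting error, was 26.5% and 34.7%, solved from SEs and not measured on library values. Library depth is unknown.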
